A study of Mus musculus with 12 samples.

Results

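The genes described here encode 10 collagen chains of fibrous tissue, perichondrium and the pericellular matrix: Col1a1, Col1a2, Col3a1, Col5a1, Col5a2, Col6a1, Col6a2, Col6a3, Col12a1 and Col14a1. They were taken by symbol from the deposited expression table of 17922 genes, and all 10 were found there. RNA was sequenced from rib chondrocytes freed with collagenase and cultured briefly, with 3 samples in each of 4 groups. The LDH knockout (Col2-Cre:Ldha(fl/fl):Ldhb+/-) and its controls came from mice at postnatal day 5, and the Acly knockout (Col2-Cre:Acly(fl/fl)) and its controls from embryos at E18.5. Knockouts and controls were littermates of a mixed, mainly C57BL/6 strain. The labels give the controls' genotype only as LDH or Acly, so whether they carry Cre or floxed alleles is not stated. Col2-Cre is driven by type II collagen sequences and acts in cartilage-forming cells, so a fibrous cell without it would keep its floxed Ldha or Acly alleles. The labels do not say whether samples came from separate animals, so p-values measure only the spread between these samples.

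Collagens are trimers whose chains carry long Gly-X-Y repeats, wound into a triple helix. Types I, III and V are fibrillar: type I builds the fibres of bone, tendon and perichondrium, type III co-assembles with it in loose tissue, and type V starts fibrils and sets their width. Type VI forms beaded filaments and lies in the pericellular shell around chondrocytes. Types XII and XIV sit on the surface of fibrils and are made in tendon, ligament and perichondrium. Cartilage cells themselves make mainly type II, and a shift from type II to type I is the usual sign of a fibroblast-like state.

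The build of each chain can be read from its coding sequence. In the longest open reading frame of each gene in GENCODE M21 (GRCm38), the longest unbroken run of repeats led by a glycine codon (GG plus any base) counted 338 repeats in Col1a1, 339 in Col1a2, 344 in Col3a1, 338 in Col5a1 and 339 in Col5a2. The run was 87 repeats in Col6a1 and in Col6a2, 45 in Col6a3, and 32 in Col12a1 and in Col14a1. The run filled 74.1% of the coding sequence of Col1a2, 25.2% of that of Col6a2 and 5.34% of that of Col14a1. The first 8 repeats of the run are shown for 1 chain of each build, with the glycine codons in capitals.
Col1a2 coding repeat: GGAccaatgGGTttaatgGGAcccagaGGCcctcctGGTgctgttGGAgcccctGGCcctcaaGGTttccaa
Col6a2 coding repeat: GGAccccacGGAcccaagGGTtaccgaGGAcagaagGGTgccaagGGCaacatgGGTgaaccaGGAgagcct
Col14a1 coding repeat: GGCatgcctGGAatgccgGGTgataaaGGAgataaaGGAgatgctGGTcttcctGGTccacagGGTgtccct

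Promoters are shown for 3 chains whose RNA passed the test in the LDH comparison, 1 lower and 2 higher. RefSeq entries (GRCm38.p6) were matched for 6 of the 10 genes. Each sequence is the 250 bases before the annotated start, with capitals for any match on either strand. The motifs searched were the CCAAT box, the TATA box spelled TATAAA, and the GC box spelled GGGCGG. Among 32851 promoters of the same length, 33.8% held at least 1 match to the first motif, 12.4% to the TATA box and 32.7% to the GC box. Col1a2 holds 1 CCAAT match, 109 bases before the start, and 2 GC box matches. Col6a2, shown for the upstream of its 2 entries, holds 1 GC box match on the reverse strand. Its other entry, not shown, holds 3 GC box matches, all on the reverse strand. Col6a1 holds no match to any of the 3 motifs, nor does Col6a3, which also passed and is not shown. No matches overlap in the windows shown, and a match is a description of the letters only. Col6a2 and Col6a1 are neighbours on chromosome 10, as are Col3a1 and Col5a2 on chromosome 1, with no other coding gene between them in RefSeq.
Col1a2 promoter, chr6:4505368-4505617, plus strand: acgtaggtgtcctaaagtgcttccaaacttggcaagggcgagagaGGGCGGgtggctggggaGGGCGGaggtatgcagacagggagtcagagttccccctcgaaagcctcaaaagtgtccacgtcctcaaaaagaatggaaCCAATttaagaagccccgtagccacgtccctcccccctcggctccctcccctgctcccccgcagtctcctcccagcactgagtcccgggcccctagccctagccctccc
Col6a2 promoter, chr10:76623631-76623880, minus strand: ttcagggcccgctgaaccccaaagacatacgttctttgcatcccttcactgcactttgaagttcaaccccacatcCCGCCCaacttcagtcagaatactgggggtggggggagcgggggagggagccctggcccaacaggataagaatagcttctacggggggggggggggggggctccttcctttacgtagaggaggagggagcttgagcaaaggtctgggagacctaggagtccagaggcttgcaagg
Col6a1 promoter, chr10:76726045-76726294, minus strand: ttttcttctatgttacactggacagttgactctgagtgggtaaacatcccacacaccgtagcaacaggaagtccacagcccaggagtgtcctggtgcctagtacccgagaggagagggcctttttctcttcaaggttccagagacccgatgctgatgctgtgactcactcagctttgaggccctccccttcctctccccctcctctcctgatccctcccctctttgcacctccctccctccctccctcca

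The libraries held 26362400 to 28154100 expected counts. In the LDH knockout Ldha stood at 10.3% of control and Ldhb at 129%, the latter short of the threshold (edgeR adjusted p = 0.115). In the Acly knockout Acly stood at 37.6% of control. On the first principal component of all genes Acly knockout replicate 2 scored 35.4, and the rest of the Acly set 60.4 to 70.8. Y-linked genes together gave 93.0 and 102 CPM (counts scaled to library size, as a rate per fixed total) in LDH control replicates 1 and 2, 0.590 CPM in control replicate 3 and at most 0.0367 CPM in the 3 LDH knockouts, so sex and genotype partly coincide in that set. The cells matched their label in that Col2a1, the type II chain, had the highest level of 44 collagen genes in both control groups.

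Levels were compared between genes as TPM, a transcript rate that allows for gene length. In both control groups the type VI chains Col6a1 and Col6a2 ranked just below Col2a1 among collagens. Col6a1 was at 728 ± 106 TPM in LDH controls and 1363 ± 66.3 TPM in Acly controls (SD, n = 3), and Col6a2 was at 521 ± 88.8 and 1082 ± 50.8 TPM. In LDH controls the order went on with Col6a3 at 181 ± 6.64 TPM, Col5a1 at 96.6 ± 11.8, Col1a2 at 52.7 ± 14.6, Col5a2 at 51.5 ± 11.0, Col1a1 at 44.0 ± 17.1, Col3a1 at 18.2 ± 8.58, Col12a1 at 4.21 ± 1.77 and Col14a1 at 0.663 ± 0.175 TPM. The sample ranges of Col1a2 and Col5a2, and of Col5a2 and Col1a1, overlapped there, and those of the other neighbours in the order did not.

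In Acly controls Col3a1 and Col1a1 stood higher in that order, at places 3 and 4 against 8 and 7 in LDH controls. Col1a2, Col5a1 and Col5a2 stood lower in it, and Col12a1 and Col14a1 kept their places. Col3a1 was at 398 ± 41.9 TPM, Col1a1 at 374 ± 60.9, Col6a3 at 343 ± 24.7 and Col1a2 at 274 ± 41.4 TPM, and each of these overlapped its neighbour. They were followed by Col5a1 at 137 ± 3.07, Col5a2 at 78.7 ± 11.0, Col12a1 at 18.2 ± 4.14 and Col14a1 at 13.5 ± 2.29 TPM, the last pair overlapping.

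**Figure D1:**
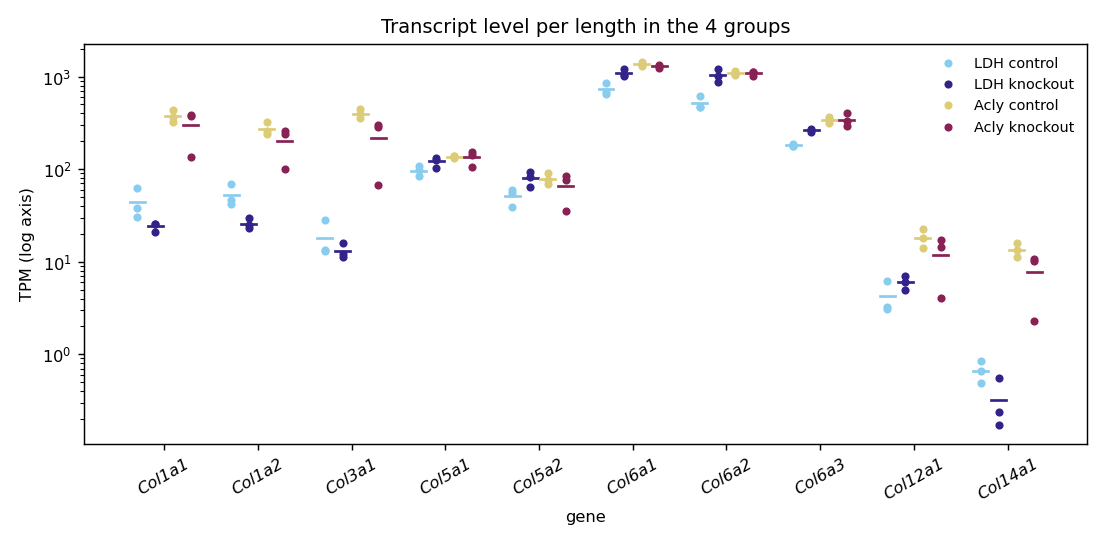
TPM of each gene on a log axis in the 4 groups, with 1 point per sample and a line at each group's mean. Col6a1 and Col6a2 are the highest in every group, and Col3a1 and Col14a1 differ most between the LDH and Acly sets.

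A comparison of both control groups gives the scale of that difference, with age, line and any library batch unable to be told apart. Of the 10 genes, 9 were higher in Acly controls and 0 lower by edgeR's quasi-likelihood test (Benjamini-Hochberg adjusted p under 0.05), where 29.4% of all 14251 tested genes were higher and 55% passed in either direction. Acly controls lay above all LDH controls for all 10, and for 34.7% of all genes. Col3a1 was 19.5-fold higher, with a log2 fold change of 4.28 ± 0.45 (SE) and an edgeR adjusted p of 6.2e-06. Col14a1 was 18.1-fold higher (log2 4.18 ± 0.48), Col1a1 7.55-fold (2.92 ± 0.33), Col1a2 4.61-fold (2.21 ± 0.27) and Col12a1 3.90-fold (1.96 ± 0.39). The type VI chains differed less, by 1.67-fold for Col6a1, 1.86-fold for Col6a2 and 1.69-fold for Col6a3.

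Of the 10 genes, Col5a1 and Col5a2 had the smallest fold changes between the control groups, while Col5a3, the remaining type V chain and not among the 10, was higher in Acly controls (log2 3.44 ± 0.22). Col5a1 had a log2 fold change of 0.34 ± 0.13 (edgeR adjusted p 0.0356), a call lost without LDH control replicate 2 or without any of the 3 Acly controls, at adjusted p of 0.0637 to 0.226. Col5a2, at 0.43 ± 0.25, did not pass (adjusted p 0.152). Of 16 fibroblast and perichondrial markers 12 were likewise higher in Acly controls and 0 lower. All 14 skeletal muscle markers and all 7 endothelial markers were higher. Of 16 chondrocyte markers 10 were higher and 2 lower. Among those tested, 6 of 9 osteoblast, 9 of 9 adipocyte, 7 of 9 macrophage and 5 of 7 tendon markers were higher. Lower were 1 macrophage and 1 tendon marker. The part of other cell types in the difference was not tested, and in bulk RNA more cells of a type and more RNA per cell cannot be told apart.

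The LDH knockout was compared with its controls to ask what deletion of Ldha on an Ldhb+/- background does to these genes. The 10 genes did not move as a group. The type VI chains among them rose, by 1.52-fold for Col6a1, 2.02-fold for Col6a2 and 1.49-fold for Col6a3, while the type I chain Col1a2 fell to 49.9% of its control level. By edgeR 4 of the 10 passed, 3 higher and 1 lower, where 2.49% of 13321 tested genes passed, 1.43% higher and 1.07% lower. The median log2 fold change of the 10 was 0.43 and that of all tested genes 0.01. An unadjusted p under 0.05 was reached by 8 of the 10 and by 19.6% of all genes. Knockouts lay above all controls for 5 of the 10 (11.9% of all genes) and below all controls for 2 (12.5%).

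**Figure D2:**
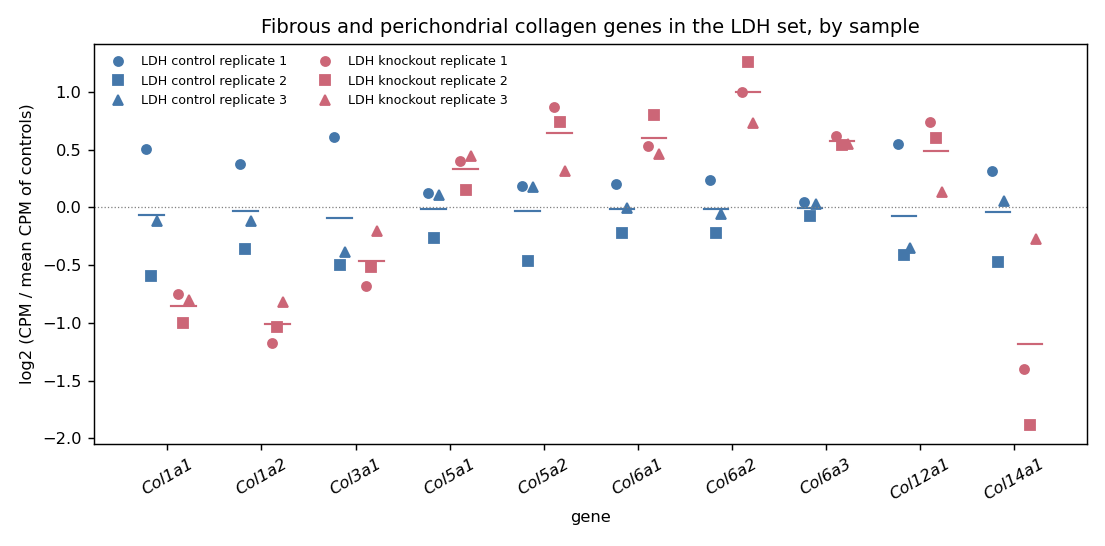
Level of each gene in the 6 samples of the LDH set, as log2 of CPM over the mean CPM of the controls, with a point per sample and a line at each group's mean of these log2 values. The 3 knockouts lie below the 3 controls for Col1a1 and Col1a2 and above them for Col5a1, Col5a2, Col6a1, Col6a2 and Col6a3.

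Type I collagen was the lower pair. Col1a2, the chain that joins 2 Col1a1 chains in the usual trimer, was at 64.1, 70.5 and 81.8 CPM (scaled by TMM within the 6 samples) in LDH knockouts 1 to 3 and at 188, 112 and 134 CPM in controls 1 to 3. All 3 knockouts were below the lowest control, and control replicate 1 was the highest. Its log2 fold change was -1.004 ± 0.17 (SE), with an edgeR adjusted p of 0.0196. Col1a1 was at 82.0, 68.8 and 78.7 CPM against 195, 91.3 and 127 CPM. The groups did not overlap, but controls differed among themselves by more than knockouts did, and the log2 fold change of -0.85 ± 0.22 did not pass (edgeR adjusted p 0.0791).

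Col3a1, the type III chain, was at 33.1, 37.2 and 46.3 CPM in knockouts and 81.2, 37.5 and 40.7 CPM in controls. Here the groups overlapped and control replicate 1 alone stood high. The log2 fold change was -0.45 ± 0.26 (edgeR adjusted p 0.377). LDH control replicate 1 was the highest control for all 10 genes, from 105% of the mean of the other controls for Col6a3 to 208% for Col3a1. Without it Col1a2, Col6a1, Col6a2 and Col6a3 still passed, and the log2 fold change was -0.00932 for Col3a1, -0.51 for Col1a1 and 0.89 for Col12a1, none of which passed.

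For Col5a1 and Col5a2, the type V chains among the 10, all knockouts lay above all controls, although neither gene passed. The same held for the remaining chain, Col5a3 (log2 0.51 ± 0.16, edgeR adjusted p 0.122). Col5a1 was at 562, 471 and 580 CPM against 464, 354 and 457 CPM, a log2 fold change of 0.34 ± 0.12 (edgeR adjusted p 0.172). Col5a2 was at 330, 301 and 224 CPM against 206, 131 and 204 CPM, or 0.66 ± 0.19 (adjusted p 0.0956). Col5a2 and its chromosomal neighbour Col3a1 thus had fold changes of opposite sign, with neither called by edgeR. DESeq2 called Col5a2 as higher.

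Col6a1, Col6a2 and Col6a3, the type VI chains among the 10, were all higher. Col6a2 was at 2074, 2481 and 1724 CPM in knockouts and 1224, 892 and 996 CPM in controls. Its log2 fold change of 1.01 ± 0.15 had an edgeR adjusted p of 0.0118. Col6a3, the longest chain, was at 1355, 1285 and 1288 CPM against 910, 835 and 898 CPM, the smallest SE of the 10 genes. Its log2 fold change was 0.57 ± 0.08 (edgeR adjusted p 0.00984). Col6a1 was at 2192, 2640 and 2086 CPM against 1739, 1296 and 1506 CPM, or 0.61 ± 0.13 (edgeR adjusted p 0.0423).

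The 2 chains that decorate fibrils differed in sign and did not pass. Col12a1 was at 37.9, 34.5 and 25.0 CPM against 33.3, 17.1 and 17.9 CPM, a log2 fold change of 0.51 ± 0.25 (edgeR adjusted p 0.285). Col14a1 was low throughout, at 0.835, 0.596 and 1.83 CPM against 2.74, 1.59 and 2.29 CPM, with overlapping groups and -1.02 ± 0.40 (adjusted p 0.199). A level of 3 counts corresponds to 0.107 to 0.114 CPM at this depth, counting error only.

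None of the 4 calls held with a covariate for Y-linked signal, at edgeR adjusted p of 0.284 to 0.374, with log2 fold changes of -0.82 for Col1a2, 0.60 for Col6a1, 1.07 for Col6a2 and 0.52 for Col6a3, each within 1.5 times its value without the covariate. In the fits that left out 1 sample, Col6a3 lost its call in 1 of 6 (without knockout replicate 1, adjusted p 0.0525), Col6a2 in 1 (without control replicate 3, 0.0611), Col1a2 in 3 (without knockout replicate 1 or 2 or control replicate 3) and Col6a1 in 4 (all but knockout replicate 3 and control replicate 1). Calls were gained for Col1a1 without control replicate 2 (-1.08, edgeR adjusted p 0.0194), and for Col5a2 (0.81, 0.0288) and Col14a1 (-1.62, 0.0284) without knockout replicate 3. Without control replicate 2 the log2 fold change of Col12a1 was 0.34.

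Markers of other cells moved beside these genes. Of 10 osteoblast markers, the cells that lay down type I collagen in bone, 7 were tested and 3 fell (Bglap2, Sp7 and Spp1, with log2 fold changes of -2.40, -1.22 and -1.01), and 0 rose. Of the 7 tested, 6 had a negative and 1 a positive log2 fold change. Their summed level was 2487 to 4644 CPM of total counts in knockouts and 6403 to 8920 CPM in controls. Most of that sum was Spp1, at a mean of 3618 CPM in knockouts and 7276 CPM in controls (scaled by TMM). Dmp1 was at 0 in the knockouts and at or under the level of 3 counts in the controls, so it shows no difference. Bglap2 shares sequence with Bglap, so its value is uncertain. Of 16 fibroblast and perichondrial markers 0 passed, 5 had an unadjusted p below 0.05, and their sum was 415 to 558 CPM against 544 to 601 CPM. The lowest p among them were those of Prrx1 (log2 -0.47), Pdgfra (-0.48) and Dkk3 (-1.17). Dkk3 was low, at a mean of 0.343 CPM in knockouts and 0.776 CPM in controls. By direction, 10 of the 16 markers had a negative and 6 a positive log2 fold change. The part of these cells in the fall of Col1a2 was not tested.

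Of 16 chondrocyte markers 15 were tested and 9 rose, among them Snorc (1.45), Acan (1.22) and Col11a1 (1.21), and 0 fell. The 16 summed to 19880 to 29283 CPM in knockouts and 11072 to 12763 CPM in controls. Col2a1 made up most of that sum, at a mean of 18465.5 CPM in knockouts and 9112.57 CPM in controls (scaled by TMM). Of 10 adipocyte markers 9 were tested and 6 rose, with Plin1 (4.84), Plin4 (2.46) and Cfd (5.65) at the lowest p. In controls Plin1 and Cfd averaged 0.168 and 0.0947 CPM (scaled by TMM), near the level of 3 counts. The list summed to 74.1 to 87.4 CPM in controls and 104 to 143 CPM in knockouts. Its largest parts were Lpl, at means of 35.8 and 46.0 CPM, and Cebpa, at 34.1 and 26.3 CPM (scaled by TMM). Cebpa alone of the 9 had a negative log2 fold change. Tendon markers summed to 236 to 262 CPM against 238 to 298 CPM. Most of that sum was Egr1, at a mean of 151 CPM in knockouts and 170 CPM in controls. Of 6 tendon markers tested 0 were called, and 1 (Tnmd, -1.12) had an unadjusted p under 0.05. Whether these cells had a part in the rise of type VI chains was not tested.

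The matrix genes that work with these collagens rose in part. Of 26 fibrous matrix partners 4 rose and 0 fell: Thbs1 (thrombospondin 1, 1.22), Ogn (osteoglycin, a small proteoglycan, 0.52), Fbln5 (fibulin 5, an elastic fibre protein, 0.64) and Ccdc80 (1.57). Of 26 genes of collagen synthesis and processing 6 rose and 0 fell. They were the cross-linking oxidases Loxl2 (1.71), Loxl4 (0.86) and Lox (0.96), the prolyl hydroxylases P3h2 (0.73) and P4ha2 (0.54), and Pcolce2 (1.21), an enhancer of procollagen cleavage. Of 11 collagen receptors 1 rose, Cspg4 (0.58), a proteoglycan known to bind type VI collagen. Ddr1 (0.47) and Itga10 (0.40), with the next lowest p, did not pass. The medians of these 3 lists were 0.26, 0.13 and 0.18.

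Among the 34 other collagen genes 27 were tested, 9 rose and 0 fell. They were Col27a1 (2.60), Col10a1 (1.70), Col4a5 (1.64), Col9a1 (1.55), Col11a1 (1.21), Col2a1 (1.02), Col11a2 (0.95), Col9a3 (0.74) and Col15a1 (0.68). Most are cartilage collagens, and Col9a1, Col11a1, Col2a1, Col11a2 and Col9a3 are also in the list of chondrocyte markers. The median of the tested 27 was 0.66. Col1a2 was thus the 1 collagen gene of all those tested that passed as lower.

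The Acly knockout was compared with its controls to ask what deletion of Acly does to the same genes. None of the 10 passed by edgeR, where 0.136% of 13973 tested genes did, and 0 of the 10 reached an unadjusted p under 0.05, where 15.8% of all genes did. DESeq2 and limma on FPKM values also called 0. The median log2 fold change of the 10 was -0.23, and that of all genes -0.00178. Knockouts lay below all controls for Col3a1 and Col14a1, or 2 of 10, near the 11.3% of all genes that did.

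**Figure D3:**
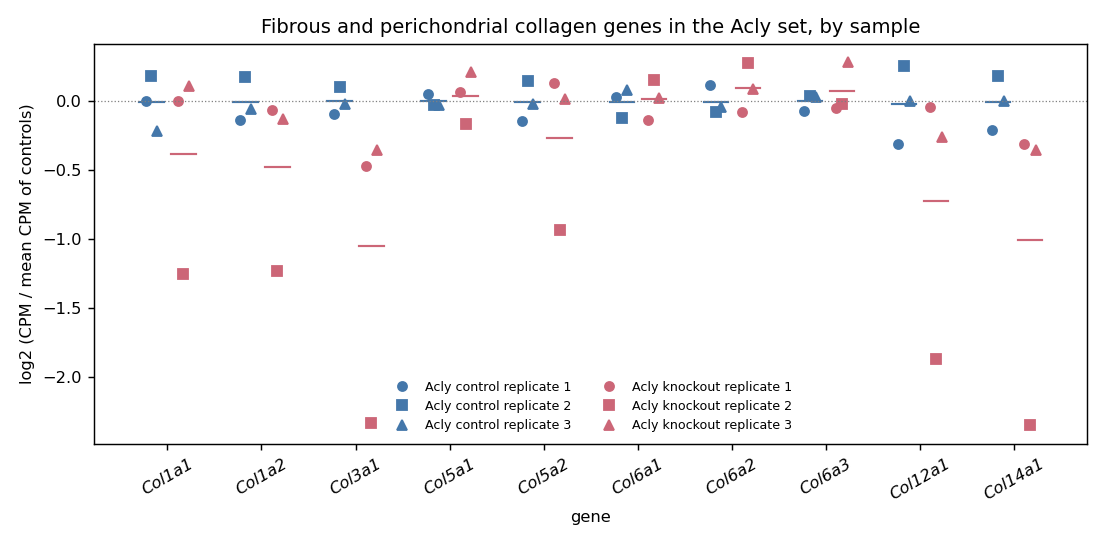
Level of each gene in the 6 samples of the Acly set, as log2 of CPM over the mean CPM of the controls, with a point per sample and a line at each group's mean of these log2 values. Knockout replicate 2 (square) is the lowest of the 6 samples for Col1a1, Col1a2, Col3a1, Col5a1, Col5a2, Col12a1 and Col14a1.

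Knockout replicate 2 was the lowest of the knockouts for 7 of the 10 genes. Col1a1 was at 1160, 484 and 1249 CPM in Acly knockouts 1 to 3 and 1160, 1312 and 998 CPM in controls 1 to 3, a log2 fold change of -0.26 ± 0.30 (edgeR adjusted p 0.66). Col1a2 was at 709, 317 and 680 CPM against 677, 839 and 714 CPM, or -0.39 ± 0.26 (adjusted p 0.462). For both type I chains the other knockouts lay within the range of the controls.

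Col3a1 was at 834, 229 and 904 CPM against 1082, 1238 and 1139 CPM. All 3 knockouts were below the lowest control, with replicate 2 at 26.3% of the mean of the other knockouts. The log2 fold change was -0.81 ± 0.40 (edgeR adjusted p 0.353). Col14a1 was at 36.0, 8.72 and 34.8 CPM against 38.6, 50.6 and 44.5 CPM, or -0.75 ± 0.41 (adjusted p 0.389). Col12a1 was at 96.1, 27.1 and 83.0 CPM against 80.2, 118 and 99.4 CPM, or -0.53 ± 0.38 (adjusted p 0.486), and these groups overlapped.

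Without knockout replicate 2 the log2 fold changes were 0.06 for Col1a1, -0.09 for Col1a2, -0.41 for Col3a1 (edgeR adjusted p 0.0676), -0.14 for Col12a1 and -0.33 for Col14a1, and 0 of the 10 passed. That library was also the lowest of its set in summed fibroblast and perichondrial markers, at 742 CPM against 1035 and 1151 CPM in the other knockouts and 1187 to 1218 CPM in controls. Its tendon markers summed to 517 CPM against 1103 and 1138 CPM in the other knockouts and 1336 to 1422 CPM in controls, and its muscle markers to 230 CPM against 410 and 489 CPM, and 454 to 568 CPM in controls. Its osteoblast markers went the other way, at 6607 CPM against 4879 and 5121 CPM in the other knockouts, and all 3 knockouts lay below the controls, at 6866 to 10080 CPM. By group means, most of the osteoblast sum was Spp1, at 5461 CPM in knockouts and 7660 CPM in controls (scaled by TMM). Most of the tendon sum was Thbs4, at 565 CPM in knockouts and 940 CPM in controls. No gene of these 4 lists was at 0 throughout a group of this set. The part of such cells in the low collagen values was not tested.

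Col5a1, Col5a2 and the type VI chains among the 10 had log2 fold changes nearer 0. Col5a1 was at 628, 533 and 694 CPM against 620, 588 and 587 CPM (log2 0.05 ± 0.11), and Col5a2 at 297, 142 and 274 CPM against 245, 301 and 268 CPM (-0.19 ± 0.24). Col6a1 was at 2555, 3130 and 2859 CPM against 2879, 2588 and 2976 CPM (0.02 ± 0.11). Col6a2 was at 2028, 2593 and 2285 CPM against 2329, 2027 and 2080 CPM (0.10 ± 0.11), and Col6a3 at 1601, 1634 and 2017 CPM against 1579, 1705 and 1690 CPM (0.08 ± 0.11). Knockouts and controls overlapped for each of these 5 genes, and the edgeR adjusted p was 0.654 to 0.943. In these CPM, knockout replicate 2 held the highest Col6a1 and Col6a2 of the set, opposite to its place for types I, III, XII and XIV. As TPM it was not the highest. Col6a1 was at 1305 TPM in it and at 1338 TPM in knockout replicate 3 and 1434 TPM in control replicate 3. Col6a2 was at 1131 TPM in it and at 1140 TPM in control replicate 1.

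Of the same lists, 0 of 26 fibrous matrix partners, 0 of 26 synthesis and processing genes and 0 of 11 receptors passed in the Acly comparison. An unadjusted p under 0.05 was reached by 4, 4 and 5 of them. The lowest p were those of Dcn (decorin, log2 -0.88), Fbln5 (0.34) and Sparc (0.26), of Pcolce2 (0.63), Crtap (0.27) and P4ha1 (-0.29), and of Itga10 (0.35), Itga1 (-0.59) and Ddr1 (0.37). Their medians were -0.14, -0.01 and -0.07. Of 16 chondrocyte markers 3 rose (Comp, Col2a1 and Col9a3), of 31 tested other collagens 4 rose (Col2a1, Col27a1, Col10a1 and Col9a3), and 0 fell. Of 16 fibroblast and perichondrial markers 0 passed, led by Thy1 (-0.48), Ly6a (-0.75) and Pdgfra (-0.47). The next lowest p was that of Twist2 (0.28), and 10 of the 16 had a negative and 6 a positive log2 fold change.

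**Figure D4:**
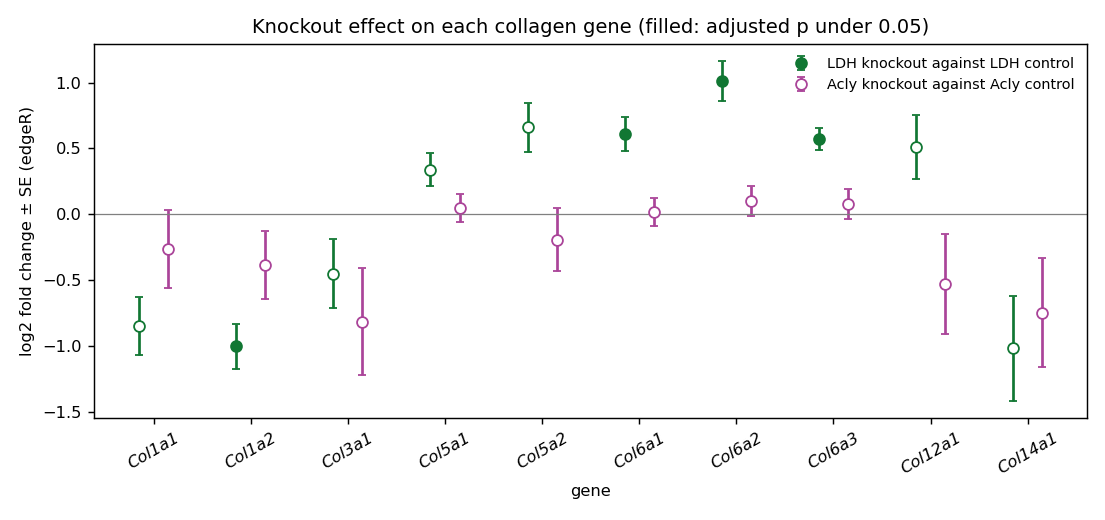
Log2 fold change of each gene (points, bars ± SE) in the LDH and the Acly comparison, filled where the edgeR adjusted p was under 0.05. Col1a2, Col6a1, Col6a2 and Col6a3 are filled in the LDH comparison, and no gene is filled in the Acly comparison.

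Whether the effects of both knockouts differ was tested as an interaction in all 12 samples, where the deletion and the age of the mice cannot be told apart. By edgeR 0 of the 10 passed, where 0.161% of 14251 genes did, and 4 reached an unadjusted p under 0.05 (13% of all genes). These were Col6a2, with a log2 difference of LDH minus Acly effects of 0.93 ± 0.20 (edgeR adjusted p 0.0965), Col6a3 with 0.51 ± 0.13, Col6a1 with 0.61 ± 0.17 and Col5a2 with 0.86 ± 0.35. DESeq2 called Col6a2 and Col6a3, at 0.90 and 0.48 with adjusted p of 0.00317 and 0.0332. For Col1a1 and Col1a2 the differences were -0.58 ± 0.44 and -0.61 ± 0.36. The rise of type VI chains past the threshold in the LDH knockout alone is therefore not shown by edgeR to differ from the Acly effect.

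Ratios of TPM within a sample do not depend on the scaling of libraries. In the LDH set the ratio of Col1a1 to Col2a1 was 0.00393, 0.00245 and 0.00443 in knockouts 1 to 3 and 0.0170, 0.00928 and 0.0109 in controls 1 to 3. It was lower in all 3 knockouts than in any control, with a mean log2 difference of -1.78. In the Acly set it was 0.0916, 0.0308 and 0.0849 against 0.173, 0.179 and 0.147, with a mean log2 difference of -1.42 and again no overlap. In the LDH set both sides of the ratio moved, with log2 fold changes of -0.85 for Col1a1 and 1.02 for Col2a1. In the Acly set these were -0.26 and 1.05, and Col2a1 passed in both sets while Col1a1 passed in neither.

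Between chains of 1 collagen, Col6a1 to Col6a2 was 1.01, 1.01 and 1.16 in LDH knockouts and 1.36, 1.39 and 1.45 in LDH controls, without overlap. In the Acly set it was 1.15 to 1.21 against 1.18 to 1.37, and overlapped. Col1a1 to Col1a2 overlapped in both sets, at 0.943 ± 0.158 against 0.819 ± 0.0991 in the LDH set and 1.46 ± 0.138 against 1.37 ± 0.138 in the Acly set (SD, n = 3). Col3a1 to Col1a1 was 0.767, 0.504 and 0.772 in Acly knockouts and 0.995, 1.01 and 1.22 in their controls, without overlap, and it overlapped in the LDH set. Across 6 ratios in each set, the 4 without overlap each had a two-sided exact permutation p of 0.1, the smallest that 3 against 3 samples allow, and 0.3 after Benjamini-Hochberg adjustment over 12 tests. The ratios of Col5a1 to Col5a2 and of Col6a3 to Col6a1 overlapped in both sets.

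**Figure D5:**
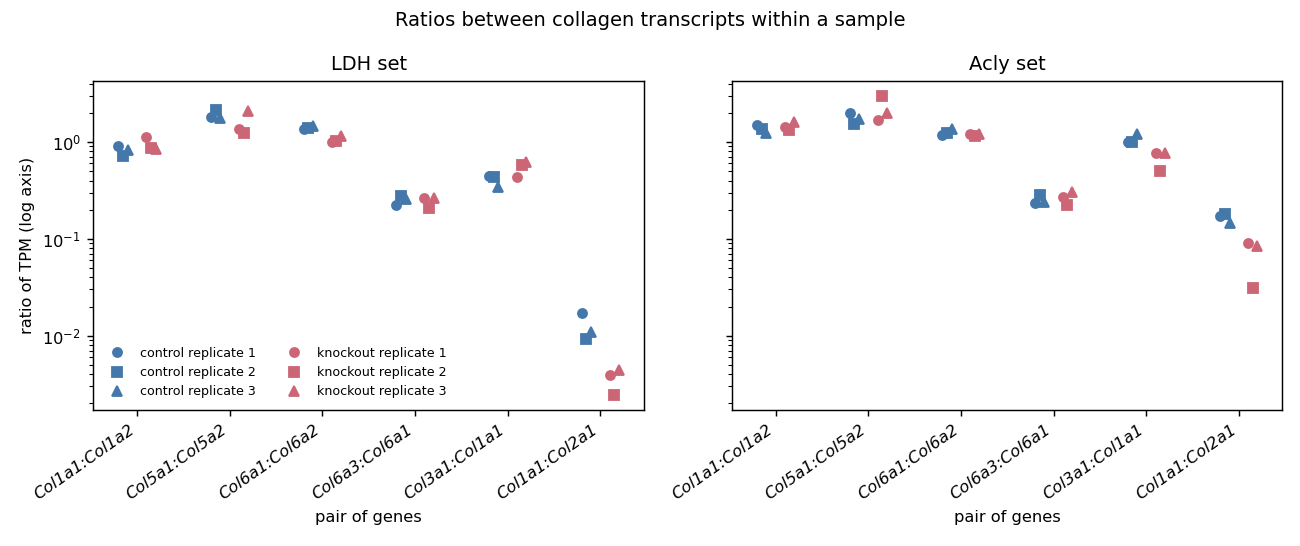
Ratios of TPM between pairs of genes within each sample, on a log axis, for the LDH and Acly sets, with 1 point per sample. The ratio of Col1a1 to Col2a1 is lower in the knockouts of both sets, and that of Col6a1 to Col6a2 is lower in LDH knockouts alone without overlap.

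The genes most like Col1a1 and Col6a1 were taken by Pearson's r of log2 CPM, centred within each set, over the 12 samples and 9858 genes averaging 5 CPM or more in each set. The 12 points share the knockout and control groups, and r carries no test. Nearest to Col1a1 were Thbs2 (thrombospondin 2, r = 0.929), Nfatc4 (0.921), Slit3 (0.921), Adam12 (0.902) and Bicc1 (0.895). Of these Adam12 fell in the LDH knockout, with a log2 fold change of -0.50 (edgeR adjusted p 0.0258). Nearest to Col6a1 were Emilin1 (an elastic fibre glycoprotein, r = 0.942), Hr (0.940), Mdfi (0.934), As3mt (0.933) and Snx1 (0.918), with LDH fold changes of 0.24 to 0.61, and none of these 5 passed.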

How the data were processed

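Per the file headers, the authors deposited for each gene and sample a read count, an FPKM value and a TPM value, in 1 table. Between 7.32% and 8.16% of the read counts deposited by the authors are not whole, and these expected counts were rounded. HISAT2 2.0.4 and build mm9 are named in the submitters' processing notes, and the counting program, annotation and use of strand are not given in the sources used here. The table holds Entrez identifiers, of which 17814 were found in RefSeq (GRCm38.p6). No gene coordinates are given because the builds differ, except for promoters, in RefSeq's own build. Levels and ratios rest on the deposited TPM values, and 1 alternative on the deposited FPKM values.

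Knockouts were tested against littermate controls by edgeR 4.0.16 in R 4.3.3 (TMM, filterByExpr, two-sided quasi-likelihood F tests, Benjamini-Hochberg adjustment over all tested genes, threshold 0.05). The difference of effects and the comparison of controls used all 12 samples. The SE is the log2 fold change divided by the square root of F. All 10 genes passed the filter in each comparison. Marker sums are CPM of total counts. Alternatives were DESeq2 1.42.0, limma 3.58.1 on log2(FPKM + 1), other scaling, no filter, the replicate number as a block, a Y-linked covariate and leaving out each sample. The edgeR fit was tested on simulated data. No 2 libraries had counts equal within sampling noise. The genes named are the 10, the targeted genes, the 3 of lowest p in each list, called collagens and the 5 most alike. The calls named beyond these 3 (Ccdc80, Pcolce2, P4ha2 and Lox), and Col5a3, Twist2, Dmp1, Lpl and Cebpa, were chosen after their values were seen. The members and lists were chosen with earlier results of these data known.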

Additional observations from a re-analysis of the deposited data

Results flagged for a closer look

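Among the genes named in the text, 5 had effects that differed between the LDH and Acly knockouts by edgeR's interaction test, in which gene deleted and age coincide, and none of the 10 collagen genes did. The log2 difference (LDH minus Acly effect) was -3.18 for Ldha and 1.25 for Acly, the deleted genes. Loxl2, a cross-linking oxidase of collagen, had 1.82 (edgeR adjusted p 0.00171), with a fold change of 1.71 in the LDH and -0.10 in the Acly comparison. P3h2, a prolyl hydroxylase of collagen, had 0.65 (adjusted p 0.0278), from 0.73 and 0.09. The fat cell marker Plin1 had 4.10 (adjusted p 0.044), from 4.84 and 0.75.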

How the results depend on the processing

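Of 620 values of the 10 genes under alternatives, 578 kept their direction and side of the threshold. In the LDH comparison the count of all genes called was 332, and 902 with DESeq2, 3 with the Y-linked covariate (1781 at an unadjusted p under 0.05) and 95 to 1068 when single samples were left out. The count among the 10 was 4. It was 5 with DESeq2, which added Col5a2, and 3 with limma on FPKM values, which did not call Col6a1. With the Y-linked covariate it was 0 (and Col3a1 went from -0.45 to 0.14), and it was 1 to 6 with samples left out. In the Acly comparison the count of all genes was 19, and 11 without scaling (3 higher and 8 lower, against 8 and 11), 32 without the filter, 247 with DESeq2, 6 with the Y-linked covariate and 0 to 132 with samples left out. For the difference of effects it was 23, and 213 with DESeq2 and 5 to 143 with samples left out, while the count among the 10 was 0, 2 with DESeq2 and 0 to 1 with samples left out. The cause of these changes was not tested.

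Some values near 0 changed sign. In the Acly comparison the log2 fold change of Col6a1 was -0.0342 without scaling and -0.0363 on FPKM values, and that of Col5a1 -0.00741 on FPKM values. With single samples left out, the Acly fold changes ranged from -0.49 to 0.0616 for Col1a1, -0.0437 to 0.15 for Col5a1, -0.38 to 0.076 for Col5a2, -0.0535 to 0.0897 for Col6a1 and -0.0355 to 0.14 for Col6a3. The difference of effects ranged from -0.0421 to 0.82 for Col3a1 and from -0.86 to 0.0299 for Col14a1, which was 0.60 on FPKM values. The log2 difference in the ratio of Col6a3 to Col6a1 ranged from -0.12 to 0.0795 in the LDH and from -0.0311 to 0.18 in the Acly set. Between the controls, the share of higher calls was 53.3%, 72.4% without scaling and 72.2% on FPKM values, where the median of all genes moved from 0.02 to 0.19 and 0.13, and 9 of the 10 genes were called higher in each.

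Same-numbered knockout and control samples did not deviate together, with correlations of -0.159 to 0.0491 in the LDH and -0.222 to 0.00113 in the Acly set. With the replicate number as a block 362 genes passed in the LDH, 8 in the Acly comparison, 5 for the difference of effects and 7398 between controls. Among the 10 it called Col1a1 in the LDH comparison (adjusted p 0.0279 by edgeR) and did not call Col6a1 (0.0683). Depth limits Col14a1 in the LDH set most, where 0.596 CPM was the lowest level, against 0.107 to 0.114 CPM for 3 counts.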
